A study of Mus musculus with 8 samples.

Results

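The 4 arrays of SEMA3E-treated B16 cells were set against the 4 arrays of B16 cells without SEMA3E, to ask which genes separated every array of one arm from every array of the other. The SEMA3E arm held 2 arrays labelled SEMA3E at 2 h and 2 labelled SEMA3E at 8 h, and the other arm held 2 arrays labelled cytochalasin D at 8 h and 2 labelled control at 0 h. These 8 arrays were all the arrays of the series, and arms were assigned from the labels alone. B16 is a pigmented mouse melanoma cell line, and per the labels all cells grew in high-glucose medium with fetal bovine serum. SEMA3E is a secreted class 3 semaphorin, and cytochalasin D is a fungal compound that caps growing actin filaments. No vehicle, dose, or source of SEMA3E was given in the sources used here. Per the labels the replicates of a group were biological, from 1 cell line, so p-values concern cultures of that line. The test between the arms used 1 mean per arm. The spread within an arm therefore included the differences between its 2 groups as well as those between cultures. The cytochalasin D arrays were in the arm without SEMA3E although their cells were drug-treated, and the control at 0 h was not matched in time to either SEMA3E group, whereas both 8 h groups were matched to each other.

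As background, SEMA3E binds plexin D1, which at many sites needs no neuropilin for this ligand, and furin cleaves the secreted protein. Plexins act through a GTPase-activating domain towards small GTPases of the R-Ras and Rap1 kind and through Arf6, and the outcome in many cells is loss of integrin adhesion and collapse of the actin cytoskeleton. Transcripts known to follow the cytoskeleton and growth factor signalling include immediate early genes, ERK feedback genes, and targets of SRF-MRTF and YAP-TAZ.

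Values are log2 of the scanner's processed signal minus the array's 75th percentile over probes well above background on all 8 arrays, so that 0 marks a bright probe and 1 unit is 2-fold. A difference is SEMA3E minus without SEMA3E on that scale, given as log2 ± SE from limma, a linear model with moderated spread, fitted to 18073 genes or transcripts. To pass the filter on dim probes, a probe had to be well above background on both arrays of at least 1 group. An arm's level is given as mean ± SD with n = 4 arrays. A gene was called where its p, adjusted by Benjamini-Hochberg over every gene in the fit, was under 0.05. Genes without overlap are those for which the lowest array of one arm lay above the highest array of the other, and that space is called the gap. An exact permutation test of a single gene over the 70 splits of 8 arrays into 4 and 4 can give no two-sided p below 0.0286, and each gene without overlap has that p before adjustment. Levels of different probes were not compared with each other, and in bulk RNA fewer cells with a transcript and less transcript per cell cannot be told apart.

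The arrays differed in quality in ways that crossed the arms. Raw signal at the 75th percentile was lowest for both SEMA3E 2 h arrays (59.3 and 61.1) and cytochalasin D replicate 2 (66.8), and ranged up to 154 for SEMA3E 8 h replicate 1. The negative control spots of SEMA3E 8 h replicate 2 were the brightest at 41.6, with those of every other array at 17.9 to 22.2. Outlier spots numbered 214 on SEMA3E 2 h replicate 2, against 6 to 24 on the rest. All 8 arrays lay on 1 slide with 1 scan time, with control and SEMA3E 2 h in its first row and SEMA3E 8 h and cytochalasin D in its second. All 8 melanocyte markers were above background on every array of both arms, with a median difference of 0.07. The macrophage and leukocyte markers had a summed level of -2.39 to -2.20 in SEMA3E arrays and -2.80 to -2.54 in arrays without SEMA3E, with 4 of 6 tested and Cd14 at background on every array. Of these, Itgam, an integrin subunit of myeloid cells, was at 0.77 ± 0.19 without overlap, and it and Krt14 were named after their values were seen. Of 2 keratinocyte markers tested 1 was higher, Krt14 at 0.94 ± 0.25, and 1 was lower, with Krt1 and Krt10 at background. Krt14 was above background on 4 SEMA3E arrays and 2 arrays without SEMA3E. The summed level of that list was -6.30 to -5.63 in SEMA3E arrays against -6.98 to -6.31 in the rest. The 3 fibroblast markers tested had a median difference of -0.01, and the 3 endothelial markers tested 0.12. The part of array quality and of these markers in the results below was not tested.

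No gene passed the test between the arms (0% of genes called by limma), and the smallest adjusted p was 0.208. In limma's fit of 4 group means the same contrast also called 0 genes, with a smallest adjusted p of 0.0609. At an unadjusted p under 0.05 there were 1858 genes with higher values in SEMA3E arrays (10.3% of genes) and 483 with lower values (2.67%), where about 904 in all would be past that p with no difference. Values lay without overlap and higher in SEMA3E arrays for 1016 genes (5.62%), and lower for 399 genes (2.21%). The balance of directions depended on the scaling, with 472 higher and 783 lower after quantile normalization. Gaps were narrow, with a median of 0.12 log2 units among the higher genes and 0.08 among the lower, and 8 genes, all higher, had a gap over 1 log2 unit. The probes without overlap were above background on all 8 arrays for 737 of the higher and 360 of the lower genes. Of all genes tested, 10382 had a difference above 0 (57.4%) and 7691 one below 0. Counts of higher and lower members in the lists below are to be read beside that share. The lists were chosen with earlier results of these data known, so their counts are no independent support for a difference.

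The sequences of the non-coding RNA probes with wide separation are shown because these transcripts carried some of the largest differences among named genes. They are the array's 60-base probes as the scanner files give them, for the 18S ribosomal RNA, the 5.8S ribosomal RNA, and Rmrp, the RNA of the nucleolar RNase MRP complex that takes part in ribosomal RNA processing:
Rn18s: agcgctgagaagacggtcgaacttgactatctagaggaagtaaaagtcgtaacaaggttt
Rs5-8s1: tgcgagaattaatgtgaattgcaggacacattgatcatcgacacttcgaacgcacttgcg
Rmrp: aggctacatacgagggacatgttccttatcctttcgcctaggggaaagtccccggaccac
Their GC content was 43.3%, 45.0% and 55.0%. Ribosomal RNA genes exist in many copies, which these probes cannot tell apart. How far the signal of these and other non-coding RNA probes followed the amount of the RNA in the cells was not tested.

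Rn18s read -4.54 and -3.98 with SEMA3E for 2 h and -3.60 and -3.78 with SEMA3E for 8 h, against -7.64 and -9.38 with cytochalasin D and -6.26 and -6.86 in control. The arms did not overlap, and cytochalasin D replicate 2 was the lowest array by a wide margin. The measured difference was 3.56 ± 0.59 (adjusted p = 0.208), with the probe above background on all 4 SEMA3E arrays and both controls but on neither cytochalasin D array, so that its size rests in part on levels near background. Rs5-8s1 read -4.06, -3.14, -4.26 and -4.19 in SEMA3E arrays, against -8.11 and -7.27 with cytochalasin D and -5.74 and -6.19 in control. Its difference was 2.91 ± 0.50 (adjusted p = 0.208), and the SEMA3E arrays again all lay above the rest. Rmrp, encoded on chromosome 4, read -1.51 and -2.47 with SEMA3E for 2 h and -4.14 and -4.42 with SEMA3E for 8 h, against -6.22, -5.08, -5.61 and -5.74 in the arrays without SEMA3E. It was highest in the 2 h arrays, and the arms did not overlap (2.53 ± 0.61, adjusted p = 0.247).

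Of the list of structural non-coding RNAs, 10 were tested, 9 were higher and 0 passed the test. The median difference of the list was 0.85, against 0.08 over all genes tested, and it stayed above 0 under each of the 9 other ways of making the values that were tried, at 0.06 to 0.85. There were 6 members at an unadjusted p under 0.05, all higher, against the 10.3% of all genes. The list was chosen with earlier results of these data known, so this share is no independent support for a difference. The share also varied by kind of probe. Higher at that p were 372 of 2197 lincRNA probes, 1060 of the 6025 dimmest genes tested and 297 of the 6024 brightest. Beside Rs5-8s1 and Rmrp the 6 members were, named after their values were seen, Kcnq1ot1, the long antisense RNA of an imprinted cluster (1.36 ± 0.55), Neat1, the scaffold of paraspeckles (0.91 ± 0.38), H19, an imprinted RNA (0.88 ± 0.37), and the snoRNA host gene Snhg1 (0.82 ± 0.26). Snhg1 was without overlap, whereas Kcnq1ot1, Neat1 and H19 overlapped. Kcnq1ot1 read -3.21 and -2.80 with SEMA3E for 2 h and -5.33 and -4.93 with SEMA3E for 8 h. In the arrays without SEMA3E it read -5.01, -5.87, -5.27 and -5.54. H19 was above background on 2 SEMA3E arrays and 2 arrays without SEMA3E. Terc, the telomerase RNA, was the 1 lower member (-0.10 ± 0.29). Snora74a, a small nucleolar RNA outside that list, averaged -3.96 ± 0.19 in SEMA3E arrays and -5.13 ± 0.29 in arrays without SEMA3E, a difference of 1.18 ± 0.20 without overlap.

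**Figure D1:**
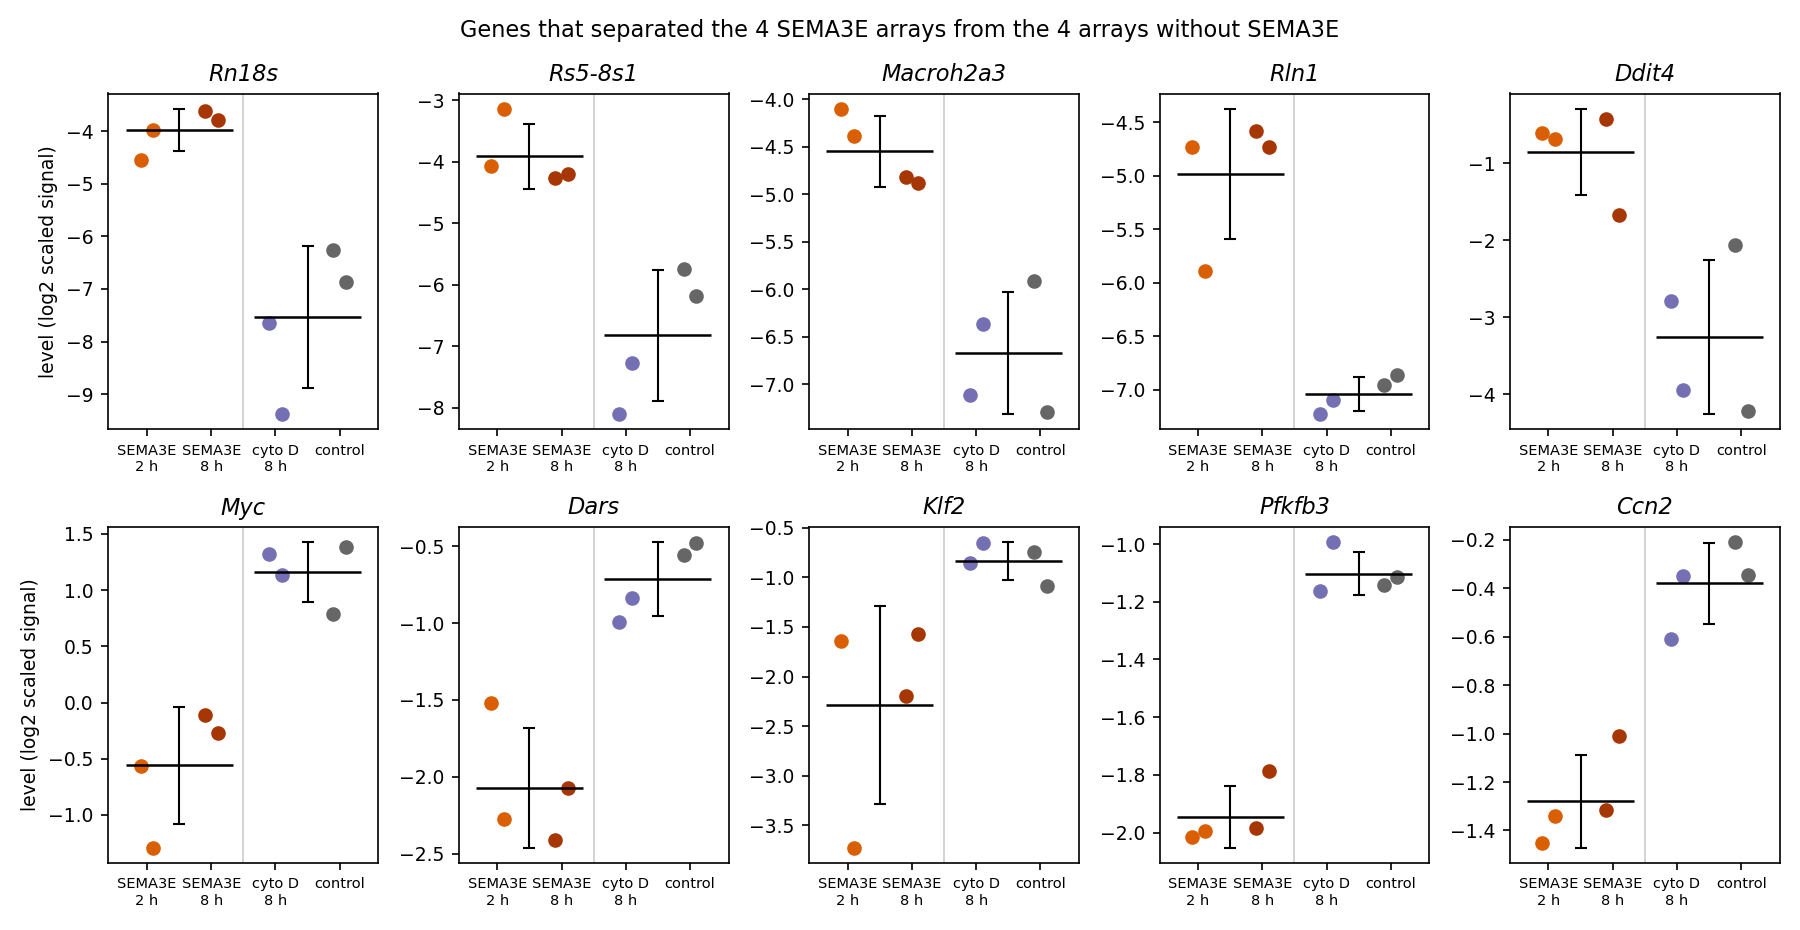
Level on each of the 8 arrays (log2 scaled signal, each panel with its own axis that does not start at 0) of 10 genes without overlap between the arms, by group; horizontal lines are arm means and bars the SD over 4 arrays. Upper panels show genes higher in SEMA3E arrays, with Rn18s at -4.54 to -3.60 against -9.38 to -6.26, and lower panels genes lower in them, with Myc at -1.29 to -0.11 against 0.79 to 1.39.

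Of the genes with a proper symbol, Rln1 had the smallest p. Rln1, which encodes the peptide hormone relaxin 1, read -4.73, -5.89, -4.58 and -4.73 in SEMA3E arrays, against -7.23, -7.10, -6.96 and -6.86 in arrays without SEMA3E. The low SEMA3E array was SEMA3E 2 h replicate 2, which still lay 0.97 above the highest of the others. The difference was 2.06 ± 0.29 (adjusted p = 0.208), or 4.16-fold, above background on all 8 arrays. Without that low array the difference was 2.35 with an adjusted p of 0.0174 in limma, and this was the 1 gene called with an array left out. Macroh2a3, a locus the files annotate with a non-coding transcript, read -4.10, -4.38, -4.82 and -4.88 in SEMA3E arrays, against -7.11, -6.36, -5.91 and -7.29 in the rest. It was 2.12 ± 0.33 higher, and the arms lay 1.03 log2 units apart.

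The other higher genes that the naming rule selected had varied roles. Mx2, a member of the interferon-induced dynamin-like GTPase family that the annotation calls a transcribed pseudogene, averaged -5.25 ± 0.22 in SEMA3E arrays and -6.30 ± 0.15 in arrays without SEMA3E (1.04 ± 0.18). Psmb9, a subunit of the immunoproteasome, averaged -6.91 ± 0.26 against -8.36 ± 0.51 (1.45 ± 0.27), and was above background on 3 and 1 arrays. Mknk1, a kinase that phosphorylates the translation factor eIF4E, was 1.35 ± 0.30 higher, and Med9os, transcribed opposite Med9, 1.1 ± 0.19 higher. Gfra4, a GDNF family receptor, read -4.33, -2.76, -2.30 and -4.39 in SEMA3E arrays, against -5.64, -6.25, -5.28 and -5.92 in the rest (2.33 ± 0.49). Its 2 other tested probes were 0.55 and 0.47 higher, so the size of its difference depended on the probe. Tmem145, a membrane protein gene, had a measured difference of 2.18 ± 0.40, and, like Psmb9, was above background on 3 SEMA3E arrays and 1 array without SEMA3E, so that the sizes of both rest on levels near background. Both met the filter on dim probes only through the SEMA3E 8 h group, so their separation is partly a matter of selection.

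A few higher genes were at background on every array without SEMA3E and on 2 SEMA3E arrays, so that only a bound could be given. They met the filter on dim probes only through SEMA3E arrays, where they were high. Their p-values and lack of overlap are therefore no support for a difference. The bound sets the mean of the SEMA3E arrays against, per array, the higher of the probe's signal and the lowest signal marked well above background. Adad1, a testis RNA-binding protein gene, averaged -7.04 ± 0.83 in SEMA3E arrays and -9.70 ± 0.58 in the rest, at least 4.10-fold higher (adjusted p = 0.208 by limma). The olfactory receptor gene Olfr314 averaged -7.66 ± 1.06 in SEMA3E arrays and -10.28 ± 0.36 in the rest, at least 2.65-fold higher (adjusted p = 0.208 by limma). A second probe of Adad1 was too dim for the test on all 8 arrays.

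Of the lower genes with a proper symbol, Myc had the smallest p. Myc, a transcription factor of growth and ribosome production encoded on chromosome 15, read -0.57 and -1.29 with SEMA3E for 2 h and -0.11 and -0.27 with SEMA3E for 8 h, against 1.32 and 1.14 with cytochalasin D and 0.79 and 1.39 in control. The arms lay 0.90 log2 units apart without overlap, and SEMA3E 2 h replicate 2 was the lowest array. The difference was -1.72 ± 0.28 (adjusted p = 0.208), or 3.29-fold lower. Its partner Max was 0.55 ± 0.22 higher with overlap, and of the list of Myc targets and ribosome biogenesis genes, 25 tested, 12 were higher and 13 lower with 0 called and a median of -0.08. The polyamine enzyme Srm was at -0.41 ± 0.60 by its brighter tested probe and at 0.49 by the other, and Cad, of pyrimidine synthesis, at 0.48 ± 0.41.

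Dars, the cytosolic aspartyl-tRNA synthetase gene, read -1.52, -2.27, -2.41 and -2.08 in SEMA3E arrays, against -0.99, -0.84, -0.56 and -0.48 in arrays without SEMA3E. All SEMA3E arrays were lower (-1.36 ± 0.24, adjusted p = 0.208). Klf2, a flow- and serum-responsive transcription factor, read -1.65, -3.72, -2.19 and -1.57 in SEMA3E arrays, against -0.85, -0.65, -0.75 and -1.09 in the rest. One array, SEMA3E 2 h replicate 2, was far below the others, and the difference was -1.45 ± 0.44 (adjusted p = 0.287). Pfkfb3, which makes the activator of glycolysis fructose 2,6-bisphosphate, averaged -1.94 ± 0.11 in SEMA3E arrays and -1.10 ± 0.08 in the rest (-0.84 ± 0.16). A dimmer tested probe of Pfkfb3 lay the other way, at 0.50. Hdac2, a histone deacetylase gene, averaged -4.56 ± 0.54 against -3.35 ± 0.23 (-1.21 ± 0.28). The adaptor gene Afap1l2 differed by -0.92 ± 0.22, the adhesion receptor gene Adgrl2 by -0.93 ± 0.20, the cargo receptor gene Tmed7 by -1.19 ± 0.26, and the zinc finger gene Zfp715 by -1.16 ± 0.19. Zfp715 was above background on 1 SEMA3E array and on all 4 others. Tas2r118, a bitter taste receptor gene, was at background on every SEMA3E array and above it on 3 others, with means of -8.64 ± 0.47 and -7.43 ± 0.35, at least 1.43-fold lower (adjusted p = 0.235 by limma). Zfp715 and Tas2r118 met the filter on dim probes only through arrays without SEMA3E, where they were high. Their separation is therefore no support for a difference.

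The receptor complex itself did not separate the arms. Plxnd1, which encodes plexin D1, read 2.97, 3.17, 2.99 and 3.28 in SEMA3E arrays, against 3.39, 3.69, 3.13 and 3.24 in arrays without SEMA3E. These values overlapped, and the difference did not pass the test, at -0.26 ± 0.19 (adjusted p = 0.549 in limma). The co-receptor Nrp2 was at 0.26 ± 0.22, the adaptor Gipc1, which binds plexin D1, at 0.18 ± 0.29, the receptor kinase Kdr at 0.12 ± 0.35, and the GTPase-activating protein Sh3bp1 at 0.02 ± 0.23. A dimmer tested probe of Nrp2 was at 0.82, and dimmer tested probes of Sh3bp1 at 1.79 and 0.32, all with overlap. The probe of Sh3bp1 at 1.79 was above background on 3 SEMA3E arrays and 1 array without SEMA3E. Furin was at -0.39 ± 0.26 and Sema3e transcript at -0.37 ± 0.24, above background on 1 SEMA3E array and on all 4 others. Of 9 genes in the list 7 were tested, 4 higher and 3 lower with 0 called and a median of 0.02, and the signs of Nrp2, Gipc1, Kdr and Sh3bp1 turned when each array was scaled to its median probe, and that of Sema3e after normexp. Nrp1 and Flt1 did not meet the filter on dim probes.

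Among other semaphorins and plexins, 23 were tested and 0 called, with a median of 0.09. Sema4g, a transmembrane semaphorin gene, read -6.43, -5.44, -5.31 and -5.15 in SEMA3E arrays, against -7.30, -8.08, -7.25 and -6.85 in the rest (1.79 ± 0.35, no overlap). Sema7a, a membrane-anchored semaphorin, was 0.85 ± 0.34 higher. Sema3c, a secreted relative of SEMA3E, read -5.74, -5.11, -5.23 and -5.91 against -4.96, -4.28, -4.68 and -4.43, and was lower on every SEMA3E array (-0.92 ± 0.25), although it was 0.18 higher in the deposited table. Sema4b was at -0.92 ± 0.46 with overlap.

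Of the plexin effector GTPases and regulators 32 were tested, 13 higher and 19 lower, with 0 called and a median of -0.11. Rap1a showed the lowest p, reading -1.87, -2.07, -2.53 and -2.37 in SEMA3E arrays against -1.37, -0.89, -1.06 and -1.10 in the rest (-1.11 ± 0.21, no overlap). The files annotate that probe with a retrotransposed copy of Rap1a, and the probe annotated with the Rap1a transcript was too dim for the test and lay 1.06 higher, so the value cannot be assigned to the parent gene. Pip5k1c, the kinase that makes PIP2 at adhesions, was 1.07 ± 0.46 higher, above background on 2 SEMA3E arrays and 1 array without SEMA3E. It met the filter on dim probes only through the SEMA3E 8 h group. Rras, the plexin GTPase substrate, was 0.58 ± 0.25 higher, and its relative Mras 0.52 ± 0.19 higher by its brightest probe, with the other tested probes below 0. Iqsec1, an Arf6 exchange factor, was 0.58 ± 0.25 higher, and Farp1, a Rac exchange factor and plexin partner, was at -0.54 ± 0.21 with its other tested probe at 0.75. Rras, Mras, Iqsec1 and Farp1 were named after their values were seen. Farp2, which binds plexin A receptors, was at -1.03 ± 0.59, and Rnd1, a small GTPase that binds plexins, at 0.62 ± 0.47.

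Immediate early genes, which respond within minutes to growth factors, did not lie on one side. Of 21 tested, 8 were higher and 13 lower with 0 called, and the median was -0.19. Beside Myc and Klf2 the lowest was Klf4, at -1.53 ± 0.69, where values overlapped. Atf3, a stress-induced factor, read -7.28, -4.56, -1.89 and -5.63 in SEMA3E arrays, against -5.94, -6.26, -6.78 and -5.97 in the rest. Atf3 was both lowest and highest in SEMA3E arrays (1.40 ± 0.94), and Egr1 spread as widely (0.85 ± 0.96). Btg2, named after its values were seen, was 0.59 ± 0.22 higher without overlap.

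ERK feedback genes, which ERK activity induces and whose products restrain it, had 11 of 15 tested members lower and 0 called. Their median was -0.23, against 0.08 over all genes, and it stayed below 0 at -1.02 to -0.11 under the 9 other ways of making the values. This was not particular to the list. Medians also stayed below 0 for immediate early, SRF-MRTF, actin nucleation, plexin effector and melanosome transport genes. The same held for S phase, splicing factor and aryl hydrocarbon receptor genes. There were 4 members with an unadjusted p under 0.05, all lower, against 2.67% of all genes. Spry1, an inhibitor of receptor tyrosine kinase signalling, read -3.50, -3.77, -3.71 and -3.22 in SEMA3E arrays and -3.01, -2.76, -2.56 and -2.92 in the rest (-0.74 ± 0.19, no overlap). Dusp6, the cytosolic ERK phosphatase, was at -0.60 ± 0.22, the ETS factor Etv5 at -0.51 ± 0.21, and the Ras inhibitor Spred1 at -0.44 ± 0.19, all 3 named after their values were seen. Dusp4, a nuclear phosphatase, was at -1.38 ± 0.70, with SEMA3E 2 h replicate 2 at -3.06 and the other SEMA3E arrays at 0.08 to 0.52. Phlda1 and Spred2 were on the other side, at 0.80 ± 0.37 and 1.59 ± 0.77, with Spred2 above background on 4 SEMA3E arrays and 2 arrays without SEMA3E.

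YAP-TAZ targets, which these co-activators induce when cells spread and carry actin tension, had 11 of 16 tested members lower, 0 called and a median of -0.06. There were 4 with an unadjusted p under 0.05, all lower, against 2.67% of all genes. Ccn2, a matricellular growth factor gene, read -1.45, -1.34, -1.32 and -1.01 in SEMA3E arrays, against -0.61, -0.35, -0.21 and -0.35 in arrays without SEMA3E. It was lower on every SEMA3E array (-0.90 ± 0.18, adjusted p = 0.208). Ccn1, its relative, read -2.80, -1.54, -1.51 and -1.45 against -0.45, -1.20, -1.26 and -0.40 (-1.0 ± 0.35, no overlap). The junction scaffold genes Amotl2 and Amotl1 were at -1.18 ± 0.44 and -0.65 ± 0.27, and Amotl1 was named after its values were seen. Crim1 and Tead1 were on the other side, at 0.20 ± 0.23 and 0.18 ± 0.25. The list's median was 0.11 after normexp background correction, when that of all genes was 0.19, so its sign depended on the processing.

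Promoters of Ccn1 and Amotl2, lower YAP-TAZ targets, are shown because TEAD factors recruit YAP and TAZ to DNA. The motif GGAATG was searched on both strands, where its complement reads CATTCC, in the 300-base RefSeq promoters of build GRCm38.p6. It was present in 14.66% of all 32851 promoters, and in a promoter of 16.58% of the 27025 genes with one in the table. It was in a promoter of 7 of the 11 tested targets with one, which were Ajuba, Amotl2, Axl, Ccn1, Crim1, Lats2 and Ptpn14. Crim1 was on the higher side, and Ccn2 had no promoter in the table. The list was made of known YAP-TAZ targets, so this share is no result about SEMA3E. The bases before the start of Ccn1 (chr3:145649986-145650235, minus strand) and of Amotl2 (chr9:102717554-102717803, plus strand) are given 5′ to 3′ on the gene's strand, with the motif in capitals:
Ccn1: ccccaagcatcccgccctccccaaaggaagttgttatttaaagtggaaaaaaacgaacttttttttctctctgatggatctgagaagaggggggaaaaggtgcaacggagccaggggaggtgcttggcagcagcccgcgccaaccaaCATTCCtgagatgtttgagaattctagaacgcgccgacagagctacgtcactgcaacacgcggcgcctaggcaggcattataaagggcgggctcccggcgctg
Amotl2: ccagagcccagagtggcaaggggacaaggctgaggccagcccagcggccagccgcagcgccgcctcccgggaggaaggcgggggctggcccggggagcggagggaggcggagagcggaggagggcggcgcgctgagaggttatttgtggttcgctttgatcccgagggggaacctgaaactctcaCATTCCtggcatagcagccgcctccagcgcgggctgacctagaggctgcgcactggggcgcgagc
A match of these letters describes the window and is no measure of binding.

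Of the cytoskeletal and adhesion lists, 3 SRF-MRTF targets, 2 integrin and focal adhesion genes and 1 actin nucleation gene were without overlap, where 7.83% of all genes were. Of the SRF-MRTF targets 29 were tested, 13 higher and 16 lower, with 0 called and a median of -0.04. Beside Ccn1 and Ccn2 this list held Palld, an actin-bundling scaffold gene, which read -7.17, -6.79, -6.35 and -5.64 in SEMA3E arrays, against -7.49, -8.52, -9.52 and -10.29 in the rest. Its measured difference was 2.47 ± 0.58 without overlap, but it was above background on 3 SEMA3E arrays and 1 array without SEMA3E, so that the size rests on levels near background. Palld met the filter on dim probes only through the SEMA3E 8 h group, so its separation is partly a matter of selection. Tagln2 was near background, at 0.75 ± 0.77. Of the actin nucleation and turnover genes 9 were higher and 25 lower with 0 called and a median of -0.16. The WAVE subunit Wasf2 was 1.18 ± 0.43 higher and the kinase Limk2 0.91 ± 0.33 higher, while Wasf1 was at -1.31 ± 0.73 and the formin Diaph1 at -0.73 ± 0.48. Limk2 was above background on 3 arrays of each arm. Among integrins and focal adhesion genes, Itga9 was 0.77 ± 0.30 higher, Src was at 1.16 ± 0.79, Tns3 at -1.01 ± 0.56 and Actn1 at -0.68 ± 0.59, and 16 of 26 were lower with 0 called and a median of -0.17. Src was above background on 2 SEMA3E arrays and 2 arrays without SEMA3E.

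Single stress-response genes were among the higher ones, while the medians of their lists lay near that of all genes. Ddit4, an inhibitor of mTORC1 induced by stress and glucocorticoids, read -0.61, -0.69, -0.43 and -1.67 in SEMA3E arrays, against -2.79, -3.94, -2.07 and -4.21 in the rest. It was 2.40 ± 0.49 higher, or 5.29-fold, without overlap (adjusted p = 0.208). Named after their values were seen, Ddit3, the pro-apoptotic factor CHOP, was 1.54 ± 0.47 higher and Sesn2, an inhibitor of mTORC1 under amino acid lack, 1.17 ± 0.42 higher, both without overlap. Trib3, an ATF4 target, was high on 1 array of each SEMA3E group, at 2.08 and 3.08, and at -0.89 and -0.91 on the others, against -1.23 to -0.36 in the arrays without SEMA3E (1.63 ± 0.86). Of 27 unfolded protein and ATF4 response genes 15 were higher and 12 lower with 0 called and a median of 0.11. Canx and Dnajc3, chaperones of the endoplasmic reticulum, were at -0.93 ± 0.56 and -0.81 ± 0.70, each with SEMA3E 2 h replicate 2 far below the other arrays.

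Of 17 p53 targets, 6 had an unadjusted p under 0.05 and all 6 were higher, against 10.3% of all genes, yet the list's median was 0.01 with 0 called. Trp53inp1, which promotes cell death and autophagy, averaged -1.80 ± 0.28 in SEMA3E arrays and -3.02 ± 0.42 in the rest (1.23 ± 0.25, no overlap). Cdkn1a, the cell cycle inhibitor p21, read -1.77, -0.94, -0.64 and -1.75 against -2.21, -2.80, -2.39 and -2.38 (1.17 ± 0.29, no overlap). Perp, Gadd45a and Bbc3, with Btg2, made up the 6, at 0.91 ± 0.27, 0.87 ± 0.34 and 0.66 ± 0.29, and were named after their values were seen. Ei24 and Plk2 were at -1.35 ± 0.87 and -0.33 ± 0.32.

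Clock genes had 8 of 14 tested members higher, 0 called and a median of 0.13. Nr1d1, the repressor REV-ERB alpha, read -6.05, -5.41, -5.79 and -5.72 in SEMA3E arrays, against -6.81, -7.99, -7.58 and -6.55 in the rest (1.49 ± 0.33, no overlap). The activator Rora was 1.28 ± 0.54 higher and the output factor Dbp, named after its values were seen, 0.49 ± 0.20 higher. Rora was above background on 3 arrays of each arm. Per1 and Hlf were at -0.89 ± 0.61 and -0.81 ± 0.50. Among aryl hydrocarbon receptor genes Cyp1a1, the enzyme this receptor induces most, read -5.64, -6.48, -6.92 and -6.46 in SEMA3E arrays, against -5.34, -5.18, -4.76 and -5.36 in the rest (-1.22 ± 0.28, no overlap). The receptor gene Ahr was at -0.33 ± 0.21, Tiparp at 0.33 ± 0.20 and the dehydrogenase Aldh3a1 at 0.47 ± 0.19, and 5 of the 7 tested were lower with 0 called and a median of -0.18.

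Metabolic lists had medians above 0, where 57.4% of all genes were higher. Of 31 oxidative phosphorylation genes tested, 27 were higher with 0 called and a median of 0.22. Cox7a2 was 0.91 ± 0.27 higher and, named after its values were seen, the complex III subunit Uqcrq 0.70 ± 0.25 higher. Ndufa1 was at 0.86 ± 0.39, Sdha at -0.31 ± 0.17 and Atp5a1 at -0.24 ± 0.22. Of this list 0 members lay higher without overlap and 1, Sdha, lay lower, where 5.62% and 2.21% of all genes did. Of 25 cholesterol and fatty acid synthesis genes 16 were higher with 0 called and a median of 0.27, Msmo1 and Dhcr7 by 0.76 ± 0.25 and 0.71 ± 0.22, with Fdps at -0.25 ± 0.30. Both medians lay above that of all genes under each way of making the values, by 0.04 to 0.24 for oxidative phosphorylation and by 0.07 to 0.29 for sterol and fatty acid genes, but both were below 0 on the scale of each array's median probe. Glycolysis and hypoxia genes had 16 of 26 higher, 0 called and a median of 0.10, with P4ha1, of collagen hydroxylation, 0.49 ± 0.17 higher, Ndrg1 0.48 ± 0.19 higher (named after its values were seen), Vegfa at 0.61 ± 0.41 and Hif1a at -0.88 ± 0.49.

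Histone genes had 11 of 14 tested members higher, 0 called and a median of 0.29. H1f4, a linker histone gene, read 0.39 and 0.89 with SEMA3E for 2 h and -1.47 and -1.62 with SEMA3E for 8 h, against -3.68, -3.11, -1.67 and -2.22 in the arrays without SEMA3E (2.21 ± 0.65). The gap was 0.04 log2 units, between the SEMA3E 8 h and the control arrays. H2ac4 was at 1.57 ± 0.89 and H1f0 at -0.95 ± 1.0, and Slbp, which binds the stem-loop of histone mRNA, at -0.69 ± 0.30. H1f0 was above background on 2 SEMA3E arrays and 4 arrays without SEMA3E. SR and hnRNP splicing factors had 20 of 26 lower, 0 called and a median of -0.23, which stayed below 0 at -1.02 to -0.25 under the other ways of making the values. Srsf3 was at -0.78 ± 0.28 and, named after their values were seen, Hnrnpk at -0.77 ± 0.28 and Srsf6 at -0.61 ± 0.24. Hnrnpl was at -1.26 ± 1.03, Clk4 at 0.37 ± 0.20 and Tra2a at 0.30 ± 0.23.

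Of pigment cell genes, 2 of melanin synthesis, 1 of melanosome transport and 0 of the lineage factors were without overlap, where 7.83% of all genes were. Pmel, the melanosome fibril protein, read 4.11, 4.49, 3.99 and 4.07 in SEMA3E arrays, against 3.81, 3.41, 3.80 and 3.90 in the rest (0.44 ± 0.19), with a gap of 0.09. Atp7a, the copper pump that loads tyrosinase, was 0.67 ± 0.21 higher without overlap. Tyr was at -0.47 ± 0.29 and Slc45a2 at -0.19 ± 0.21, and 10 of the 16 melanin synthesis genes were higher with 0 called and a median of 0.13. Rab27a, which links melanosomes to actin motors, was low in the SEMA3E 2 h group, at -4.52 and -5.07 with SEMA3E for 2 h and -1.49 and -0.63 with SEMA3E for 8 h, against -1.37 to -0.48 in the rest (-1.82 ± 0.92). A dimmer tested probe of Rab27a was at -0.42, so the size of the difference depended on the probe. The list of Rab27a, melanosome transport, had 18 of 27 lower with 0 called and a median of -0.09, with Vamp7 at -0.48 ± 0.31, Snapin at 0.42 ± 0.29 and Rab1a at 0.32 ± 0.18. Of 12 lineage factors and receptors 9 were lower with 0 called and a median of -0.16. Sox9 was 0.59 ± 0.21 higher, Pax3 was at 0.10 ± 0.16, Mc1r at -0.64 ± 0.36 and Cdk2 at -0.48 ± 0.44.

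The remaining lists had medians between -0.12 and 0.09 with 0 called, where 57.4% of all genes were higher. Of 23 interferon response genes, 15 were higher, with Oasl1, an antiviral oligoadenylate synthetase-like gene, 0.97 ± 0.28 higher beside Mx2, while Gbp3, named after its values were seen, was at -0.41 ± 0.17, Irf9 at -0.76 ± 0.55 and Ifit3 at -0.52 ± 0.58. S phase genes had 20 of 29 lower, with Uhrf1 at -0.50 ± 0.29, Gins2 at -0.41 ± 0.31, Rfc2 at 0.40 ± 0.25 and Rfc4 0.44 ± 0.18 higher. Mitosis genes had 14 of 24 lower, with Kif11 at -0.44 ± 0.42, Kif23 at -0.35 ± 0.31, Ube2c at 0.44 ± 0.21 and Cenpf at 0.53 ± 0.31. Cenpf was above background on 2 SEMA3E arrays and 4 arrays without SEMA3E. Of 20 PI3K-AKT-FOXO genes 12 were higher. Irs1, the insulin receptor substrate, was at -0.62 ± 0.22 and the mTORC1 inhibitor Tsc1 at -0.45 ± 0.19, while Foxo1 was 0.45 ± 0.17 higher, and Tsc1 and Foxo1 were named after their values were seen. Tsc2 was at 1.06 ± 0.59, Gsk3b at 0.54 ± 0.65 and Akt2 at -0.49 ± 0.28, with Tsc2 above background on 3 SEMA3E arrays and 2 arrays without SEMA3E. Of 20 ephrins, netrins, slits and their receptors 11 were higher, with Efna1 1.02 ± 0.40 higher without overlap, Dcc at 1.01 ± 0.65, Slit2 at -0.61 ± 0.28 and Epha4 at -0.64 ± 0.40. Where several probes of a named gene were tested, they lay on opposite sides of 0 for Akt2, Diaph1, Farp1, Gsk3b, Irs1, Mc1r, Mras, Pfkfb3, Srm and Tiparp, 10 of the 38 such genes.

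**Figure D2:**
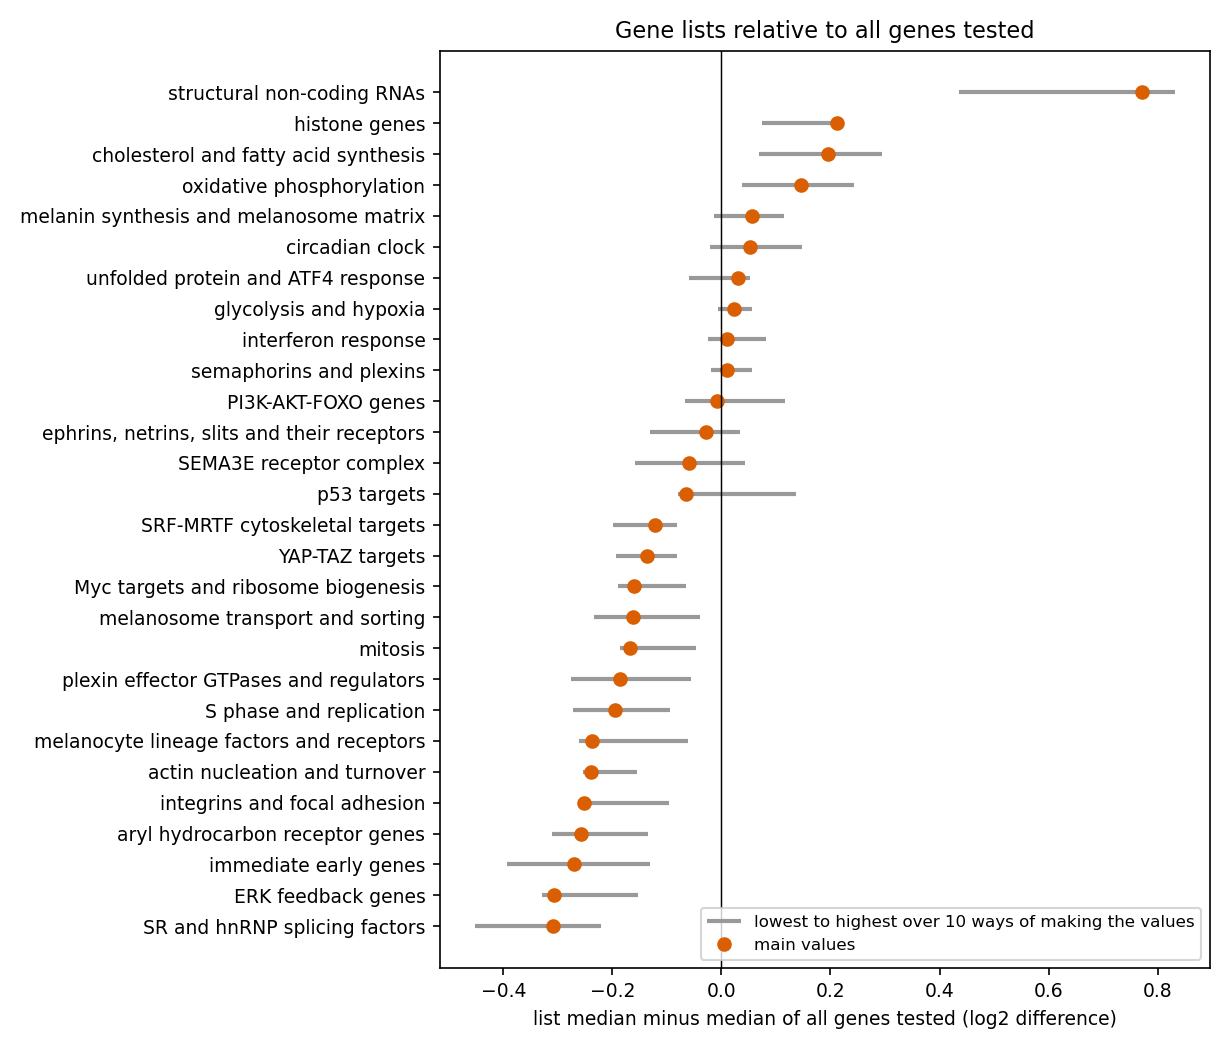
Median difference of each gene list (SEMA3E minus without SEMA3E, log2) minus the median of all genes tested: points are the main values, and lines run from the lowest to the highest value over 10 ways of making the values. Structural non-coding RNAs lay at 0.77 and ERK feedback genes and splicing factors at -0.31, and 18 of the 28 lines do not cross 0.

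The comparison can be split into parts that share no array. SEMA3E for 2 h against control and SEMA3E for 8 h against cytochalasin D for 8 h gave differences that correlated across the 18073 genes at r = 0.30, as a description, since genes are not independent and probe properties are shared by both. In limma's fit of 4 group means, 0 genes were called at 2 h (0%, with 1712 at an unadjusted p under 0.05) and 1 at 8 h (0.00553%). The 1 gene called at 8 h was Catsperg2, which encodes a subunit of a sperm calcium channel and was named after its values were seen (adjusted p = 0.0466). Of the 8 arrays, 2 measured it above background, both from cells given SEMA3E for 8 h, so that it met the filter only through the group where it was high. Its call and lack of overlap are therefore no support for a difference. Only bounds can be given: at least 4.39-fold higher at 8 h and at least 2.16-fold higher over the whole arms. Measured means were -6.69 with SEMA3E for 8 h and -9.86 with cytochalasin D. Its levels were -9.12 and -9.34 with SEMA3E for 2 h and -6.76 and -6.61 with SEMA3E for 8 h, against -9.92 and -9.79 with cytochalasin D and -10.47 and -10.29 in control. No gene was called at 8 h under 8 of the alternatives, or with any of 6 arrays left out. After normexp, with an intensity trend and without SEMA3E 8 h replicate 2, the 1 call was a different transcript from Catsperg2.

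An unadjusted p under 0.05 with the same sign was reached in both splits by 324 genes (1.79% of genes), 299 of them higher and 25 lower. These were 18.9% of the 1712 genes at that p at 2 h and 16.3% of the 1986 at 8 h, out of 18073 tested. At that p 1008 genes were higher and 704 lower at 2 h, and 1579 higher and 407 lower at 8 h. How many genes would be shared by coincidence was not tested. The difference between the splits was tested by an interaction, which called 0 genes (0%, smallest adjusted p 0.807, 941 at an unadjusted p under 0.05). Rn18s was 2.30 higher at 2 h and at least 22.3-fold higher at 8 h (measured means -3.69 with SEMA3E and -8.51 with cytochalasin D), and Rmrp was 3.68 higher at 2 h and 1.37 higher at 8 h. Myc was at -2.02 at 2 h and -1.42 at 8 h, Dars at -1.38 and -1.33, Klf2 at -1.77 and -1.13, and Ccn2 at -1.12 and -0.68. For genes without overlap the sign is the same in both by the way they were chosen. Rab27a was at -3.50 at 2 h and -0.14 at 8 h, and its interaction did not pass either.

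**Figure D3:**
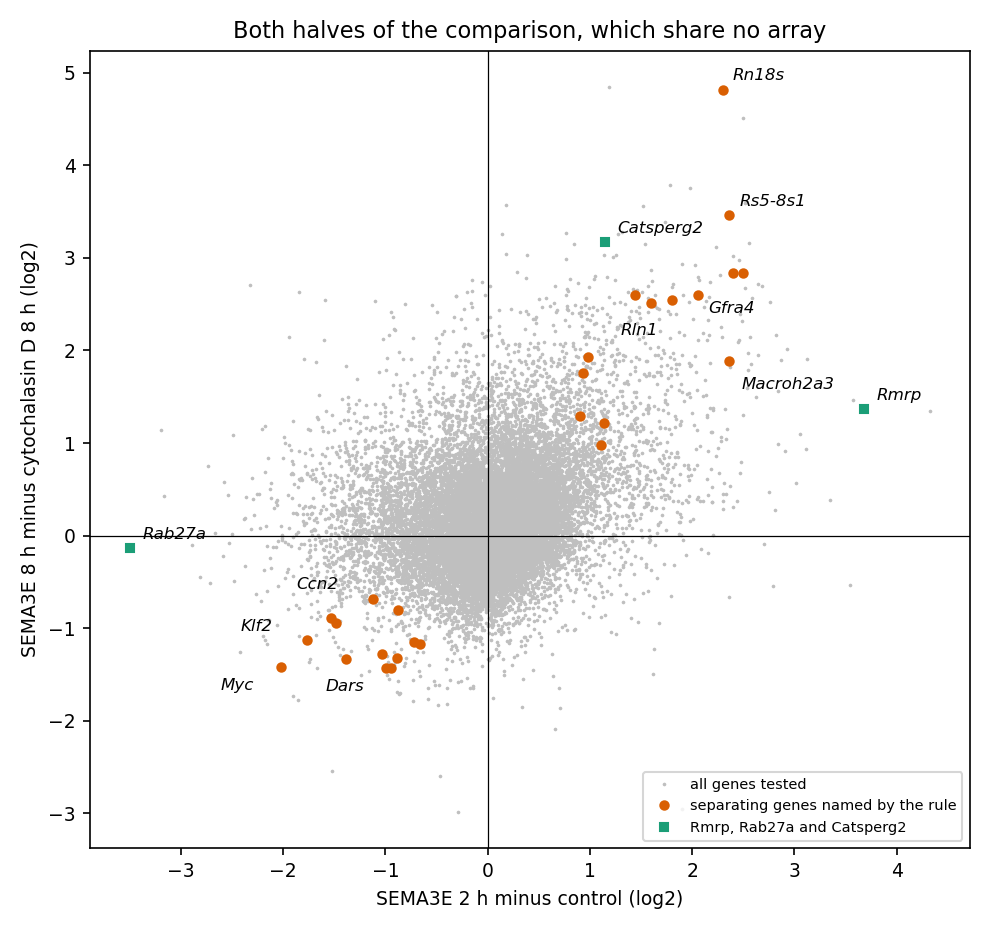
Each gene's log2 difference for SEMA3E 2 h minus control (x axis) and SEMA3E 8 h minus cytochalasin D 8 h (y axis); grey points are the 18073 genes tested, orange points the 27 separating genes picked by smallest p or widest gap, green squares Rmrp, Rab27a and Catsperg2. The orange points lie in the upper right and lower left by choice, and Rab27a lies at -3.50 and -0.14.

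The excess of higher over lower genes depended on how the values were made and on which transcripts were counted. Of transcripts with a proper gene symbol, 4.44% were higher and 2.74% lower without overlap, with a median difference of 0.00. Probes for lincRNA loci had 7.78% higher and 0.68% lower and a median of 0.26, and other names such as accession numbers had 8.10% and 1.42%. With genes ranked by level and cut into 3 equal sets, the dimmest set had 8.41% higher and 0.95% lower, and the brightest set 3.29% and 2.84%. Across genes, the difference correlated with the GC content of the probe at r = 0.26 and with the level at r = -0.23, as descriptions. On single arrays, a gene's deviation from its mean correlated with GC content at -0.05, 0.09, 0.17 and 0.31 in the SEMA3E arrays, against -0.01, -0.17, -0.28 and -0.06 in the arrays without SEMA3E. Of 382 lincRNA loci with both strands tested, 4 had both strands higher without overlap and 58 had 1.

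With the 75th percentile of all probes 497 genes were higher and 735 lower without overlap, with the trend on GC content removed 450 and 761, after normexp 652 and 195, after normexp and quantile normalization 444 and 598, and on the scale of each array's median probe 37 and 3931. The median of all genes was 0.08 in the main values, 0.19 after normexp and -0.71 with arrays scaled to their median probe. The genes without overlap under all 10 ways of making the values numbered 3 higher and 53 lower, 0.30% of the 1016 and 13.3% of the 399. The scaling to the median probe, which shifts all differences down, leaves few higher genes by construction. Without it, 62 higher (6.10%) and 53 lower (13.3%) were without overlap under the other 9 ways. Under all 10, the higher ones with a proper symbol were Rn18s and Rln1. Of the lower ones 41 had a proper symbol, and those named here are Myc, Afap1l2, Dars, Rap1a, Klf2, Ccn2, Hdac2 and Spry1. These counts were added after the data were seen.

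**Figure D4:**
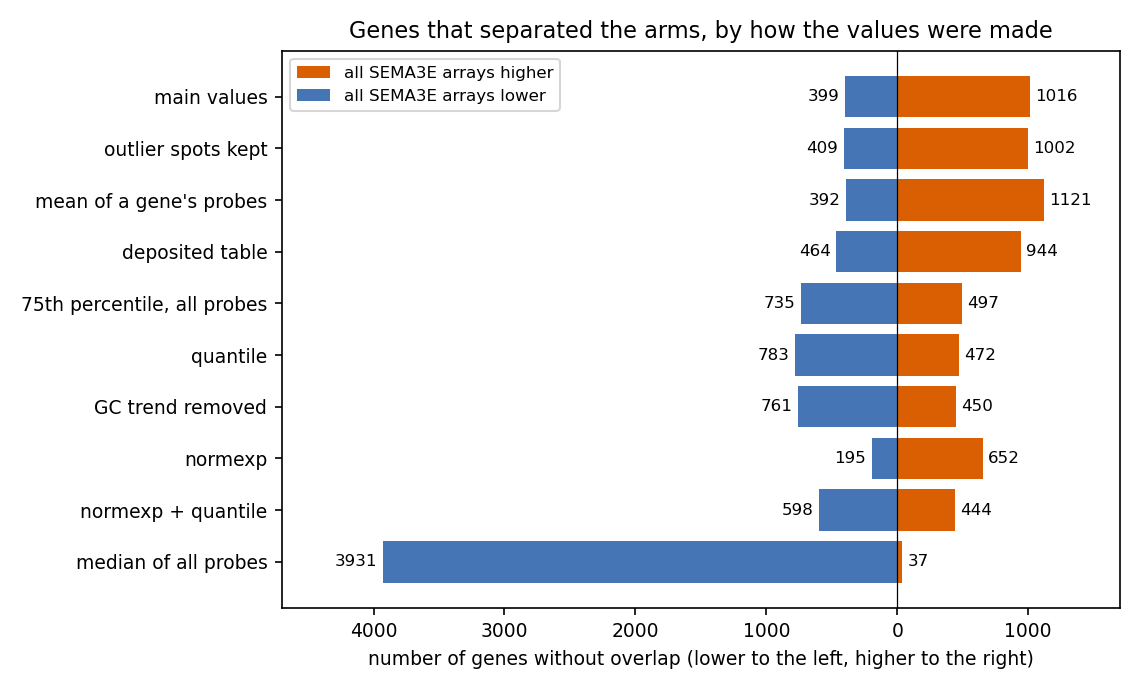
Number of genes whose SEMA3E arrays all lay above (orange, to the right) or all below (blue, to the left) the arrays without SEMA3E, for each way of making the values. The main values gave 1016 and 399, and scaling to each array's median probe 37 and 3931.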

How the data were processed

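RNA of 8 B16 cultures was hybridised to 1-colour Agilent arrays of 62976 spots. The deposited files hold scanner intensities (gProcessedSignal, background-subtracted per the file headers, Feature Extraction 11.5.1.1), and the authors also deposited a table of linear intensities used here as an alternative. Controls and outlier spots were left out, spots of a probe were averaged, and values were log2 minus the array's 75th percentile over 18687 probes above background on all arrays. Of 55698 probes 24667 passed the filter on dim probes, and the brightest probe stood for each of 18073 genes. Names were updated through RefSeq for 1244 of 34834. limma 3.58.1 in R 4.3.3 compared 4 arrays with 4 (6 residual degrees of freedom), tested on simulated data first. A second model held 4 group means.

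Members, lists and tests were chosen with earlier results of these data known. Genes named were, per direction, the 12 non-overlapping with the smallest p, the 6 above background with the widest gap, the receptor complex, and each list's 2 most different members either way; others are said to be chosen after their values were seen. A few selected genes are not reported here. Alternatives covered background correction, scaling, filters, probes, blocks, moderation, and each array left out.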

Additional observations from a re-analysis of the deposited data

Results flagged for a closer look

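In 27 of the 324 sets of 4 arrays (162 genes selected for description, in both arms, 8.33%), 1 array stood apart from the other 3 of its arm, by a gap that took most of the arm's whole range (Dixon's critical share), where chance gives about 1 in 20 such sets. SEMA3E 2 h replicate 2 was that array in 12 of them and cytochalasin D replicate 2 in 7. SEMA3E 2 h replicate 2 also had the most outlier spots, and the part of array quality in these values was not tested. Levels are given with the share of the range that the gap took. No named gene's difference was shown to vary between the 2 h and the 8 h pair. SEMA3E 2 h replicate 1 lay below the other 3 arrays of its arm for Ccn1 (-2.80, share 0.931). SEMA3E 2 h replicate 2 lay above the other 3 arrays of its arm for Dusp6 (2.11, share 0.846). SEMA3E 2 h replicate 2 lay below the other 3 arrays of its arm for Canx (0.72, share 0.883), Dnajc3 (-5.00, share 0.836), Dusp4 (-3.06, share 0.877), Farp2 (-6.15, share 0.935), Hif1a (-2.76, share 0.954), Ifit3 (-6.90, share 0.946), Irf9 (-4.30, share 0.919), Rln1 (-5.89, share 0.885), Srm (-0.96, share 0.903), Tns3 (-4.56, share 0.886) and Wasf1 (-3.63, share 0.870). SEMA3E 8 h replicate 2 lay above the other 3 arrays of its arm for Pfkfb3 (-1.78, share 0.860). Control replicate 1 lay above the other 3 arrays of its arm for Ndufa1 (2.91, share 0.921) and Trp53inp1 (-2.39, share 0.850). Control replicate 1 lay below the other 3 arrays of its arm for Hnrnpl (-5.54, share 0.934). Control replicate 2 lay below the other 3 arrays of its arm for Mras (-2.54, share 0.864). Cytochalasin D replicate 1 lay above the other 3 arrays of its arm for Rab27a (-0.48, share 0.908). Cytochalasin D replicate 1 lay below the other 3 arrays of its arm for P4ha1 (-5.27, share 0.862). Cytochalasin D replicate 2 lay above the other 3 arrays of its arm for Afap1l2 (-2.48, share 0.915), Plk2 (-2.43, share 0.850), Slc45a2 (3.30, share 0.923) and Tsc1 (0.56, share 0.845). Cytochalasin D replicate 2 lay below the other 3 arrays of its arm for Itga9 (-6.82, share 0.968), Limk2 (-8.12, share 0.880) and Snhg1 (-1.87, share 0.877).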

How the results depend on the processing

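No gene was called between the arms under the main setting, and the alternatives gave 0 calls except for 1 after normexp (Rn18s, adjusted p = 0.0397 in limma), 1 in the deposited table (Ptrhd1, adjusted p = 0.000283), 278 on the scale of each array's median probe, of which 26 were higher, and 0 to 1 with an array left out, the call being Rln1 without SEMA3E 2 h replicate 2. Genes without overlap numbered 847 after normexp, 3968 with the median of all probes, 2705 with no filter on dim probes, 5296 without the 3 dim arrays, and 1736 to 3868 with 1 array left out, where fewer arrays separate more easily by construction. SEMA3E 2 h against control gave 3437 calls after normexp, 18 with the median of all probes, 20 in the deposited table and 0 to 533 with an array left out (533 without SEMA3E 2 h replicate 1, 1 without control replicate 1). SEMA3E 8 h against cytochalasin D gave 7 calls with the median of all probes, 14 in the deposited table and 0 to 2534 with an array left out (2534 without SEMA3E 8 h replicate 1). It gave 0 after quantile normalization, normexp with quantile normalization, the 75th percentile of all probes, no filter, the stricter filter, outliers kept, the replicate block, and removal of the GC trend. The interaction gave 1 call with the median of all probes and 12 in the deposited table. With the replicate block, 0 genes were called between the arms; the correlations of same-numbered arrays were -0.147 to 0.140, so the numbers do not pair the samples. Where an array left out leaves a group with 1 array, that array is assumed to vary like the other groups. The causes of these shifts were not tested.

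Of 162 genes selected for description 97 kept their direction under every alternative. The sign differed after normexp for Zfp715 at 0.019, Tas2r118 at 0.15, Hlf at 0.0066, Sema3e at 0.24, Actn1 at 0.048, H1f0 at 0.031, Srm at 0.33, Terc at 0.22 and Gbp3 at 0.10; after normexp and quantile normalization for Crim1 at -0.025 and H19 at -0.0041; after quantile normalization for Cad at -0.015, Crim1 at -0.024 and Sh3bp1 at -0.010; and with the 75th percentile of all probes for Pax3 at -0.0043 and Sh3bp1 at -0.083. With the median of all probes, which puts the median of all genes at -0.71, it differed for Dhcr7 at -0.074, Atp7a at -0.11, Msmo1 at -0.030, P4ha1 at -0.30, Sox9 at -0.19, Itga9 at -0.013, Max at -0.24, Rfc4 at -0.34, Aldh3a1 at -0.32, Pmel at -0.35, Ube2c at -0.34, Clk4 at -0.42, Rab1a at -0.47, Cenpf at -0.26, Tiparp at -0.46, Rfc2 at -0.38, Vegfa at -0.18, Snapin at -0.37, Rnd1 at -0.16, Tra2a at -0.48, Cad at -0.30, Nrp2 at -0.53, Tagln2 at -0.033, Crim1 at -0.59, Gsk3b at -0.24, Tead1 at -0.60, Gipc1 at -0.61, Pax3 at -0.69, Kdr at -0.67, Sh3bp1 at -0.77, Itgam at -0.012, Uqcrq at -0.091, Mras at -0.27, Btg2 at -0.19, Foxo1 at -0.33, Ndrg1 at -0.31, Dbp at -0.30, Iqsec1 at -0.20, Rras at -0.21 and Bbc3 at -0.13. It differed with outlier spots kept for Tagln2 at -2.46, with a gene's probes averaged for Diaph1 at 0.19, Srm at 0.040, Mras at -0.23 and Farp1 at 0.11, in the deposited table for Sema3c at 0.18, Akt2 at 0.16, Tyr at 0.36, Rnd1 at -0.060, Tagln2 at -1.18, Srm at 0.0059, Farp1 at 0.075 and Spred1 at 0.15, with the GC trend removed for Gipc1 at -0.15 and Kdr at -0.20, and without the 3 dim arrays for Ei24 at 0.15, Dcc at -0.16, Irf9 at 0.0049, Gins2 at 0.041, Nrp2 at -0.031, Plk2 at 0.022, H1f0 at 0.81, Ifit3 at 0.19, Fdps at 0.14, Tead1 at -0.24, Srm at 0.13 and Terc at 0.32. With an array left out, at least 1 value had the other sign, within ranges of, for Dnajc3 -1.20 to 0.0037, Fdps -0.43 to 0.048, Ifit3 -0.77 to 0.16, Kdr -0.069 to 0.40, Sh3bp1 -0.090 to 0.16, Srm 0.27 to 0.59, Tagln2 -0.58 to 1.40 and Terc -0.24 to 0.17; for Srm another probe was the brightest. The GC trend and the dim arrays were chosen as alternatives after seeing the data. The brightness of an array limits the precision of dim probes.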
